A study of Danio rerio with 8 samples.

Results

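The nuclear pore is a ring-shaped channel through the nuclear envelope that is built from many copies of proteins called nucleoporins. Importins and exportins are receptors that carry proteins and RNA through it, and the small GTPase Ran sets the direction of that traffic, because Ran is loaded with GTP inside the nucleus and hydrolyses it in the cytoplasm. In fish and frog embryos, maternal stores of these proteins serve the fast divisions of cleavage, when nuclei are rebuilt at each cycle, and the import of maternal factors precedes the start of zygotic transcription. The genes described here were taken by a rule on names that uses no measured value, though it was set with earlier results of these data known. By this rule the symbol begins with nup, ipo, xpo or tnpo and a digit, or with kpna, kpnb or ranbp, or is ran, rangap1, rcc1, nxf1, cse1l, seh1l, sec13 or pom121. The names kpnb and nxf1 matched no symbol in the table of names used, and the rest found 56 of the 33737 gene identifiers in the deposited files. Of these, 22 encode parts of the pore, and 34 encode transport receptors, Ran and proteins named for binding Ran.

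Ribosome footprints, the RNA fragments that translating ribosomes shield from nuclease, were sequenced from whole zebrafish embryos at 4 hours post fertilization (hpf), a blastula stage. The groups were mutants of genotype Ddx3xb-/Ddx3xb- injected with the construct ddx3xbFL (KO_FL), mutants of that genotype injected with the construct ddx3xb△N (KO_dN), mutants with no injection in their labels (KO) and wild type embryos (WT), with 2 samples in each group. The mutated gene belongs to the DEAD-box family of RNA helicases, whose vertebrate DDX3 members are known to act in translation initiation. The sources used here do not give the strain, the mutant allele, the nucleic acid injected or the embryos per sample. No mutant group is labelled as given a control injection, so injection and construct cannot be told apart. The blastula genes nanog, pou5f3 and sox19b were present in every group. Their summed levels as deposited were 118.5 FPKM in KO_FL, 64.3 in KO_dN, 108 in KO and 248 in WT. The groups differ in scale, and WT was lowest for this sum after the scaling described below. By contrast, 5 markers of later tissues did not exceed 1.44 FPKM in any group.

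The unit is FPKM, fragments scaled to the length of the transcript and to the mapped fragments of the library. Levels of different genes can be compared only roughly, because the sources used here do not say whether untranslated parts entered that length. The authors deposited 1 value per gene and group, made from its 2 replicates. No value therefore has an error, no test between groups was possible, and differences are given as sizes only. The WT file stood apart from the others in layout and scale. The deposited values summed to 2050290 FPKM in WT, against 395754 in KO_FL, 190693 in KO_dN and 364061 in KO, and the sources used here do not show that all files were made in the same way. If they were, the value that a single read adds in genes of very low level puts the WT libraries at 34.5% and 27.1% of the depth of the deepest library, against 57.1% to 100% for the 6 mutant libraries. If they were not, those depths do not hold, and a ratio of KO to WT can also carry the difference in how the files were made, which cannot be told apart from the genotype. The numbers of reads are unknown, and a low value is therefore less certain than a high one by an amount that cannot be given. Values were scaled so that the typical gene matched between groups (factors of 0.902 for KO_FL, 0.447 for KO_dN, 0.73 for KO and 3.4 for WT). A relative log2 ratio is log2 of (scaled FPKM + 1) in the first group over that in the second, minus the median of the same ratio over the 6356 genes whose scaled FPKM averaged at least 1; a ratio of 0 means the same shift as the median gene. The addition of 1 understates differences of low genes. A gene is called higher or lower when its relative ratio was at least 1.5-fold. In a whole embryo, fewer cells of a type and fewer footprints per cell cannot be told apart, and without matched mRNA levels neither can less mRNA and fewer ribosomes on each mRNA.

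As deposited, pore and transport genes ran from traces to more than 100 FPKM. Of the 54 identifiers with a single line in each file, 51 had their highest FPKM in WT and 50 their lowest in KO_dN, which follows the order of the whole tables. The median over these 54 was 1.75 FPKM in KO_FL, 0.891 in KO_dN, 1.45 in KO and 5.65 in WT. Only NUP37, IPO13 and ipo13a were higher in KO than in WT before any scaling. KO was below WT for 94.4% of these genes and for 92.4% of all genes tested. After scaling, 39 of the 54 passed the filter on low values, and the other 15 did not. NUP205 was the only member that would have failed without the group in which it was highest.

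**Figure D1:**
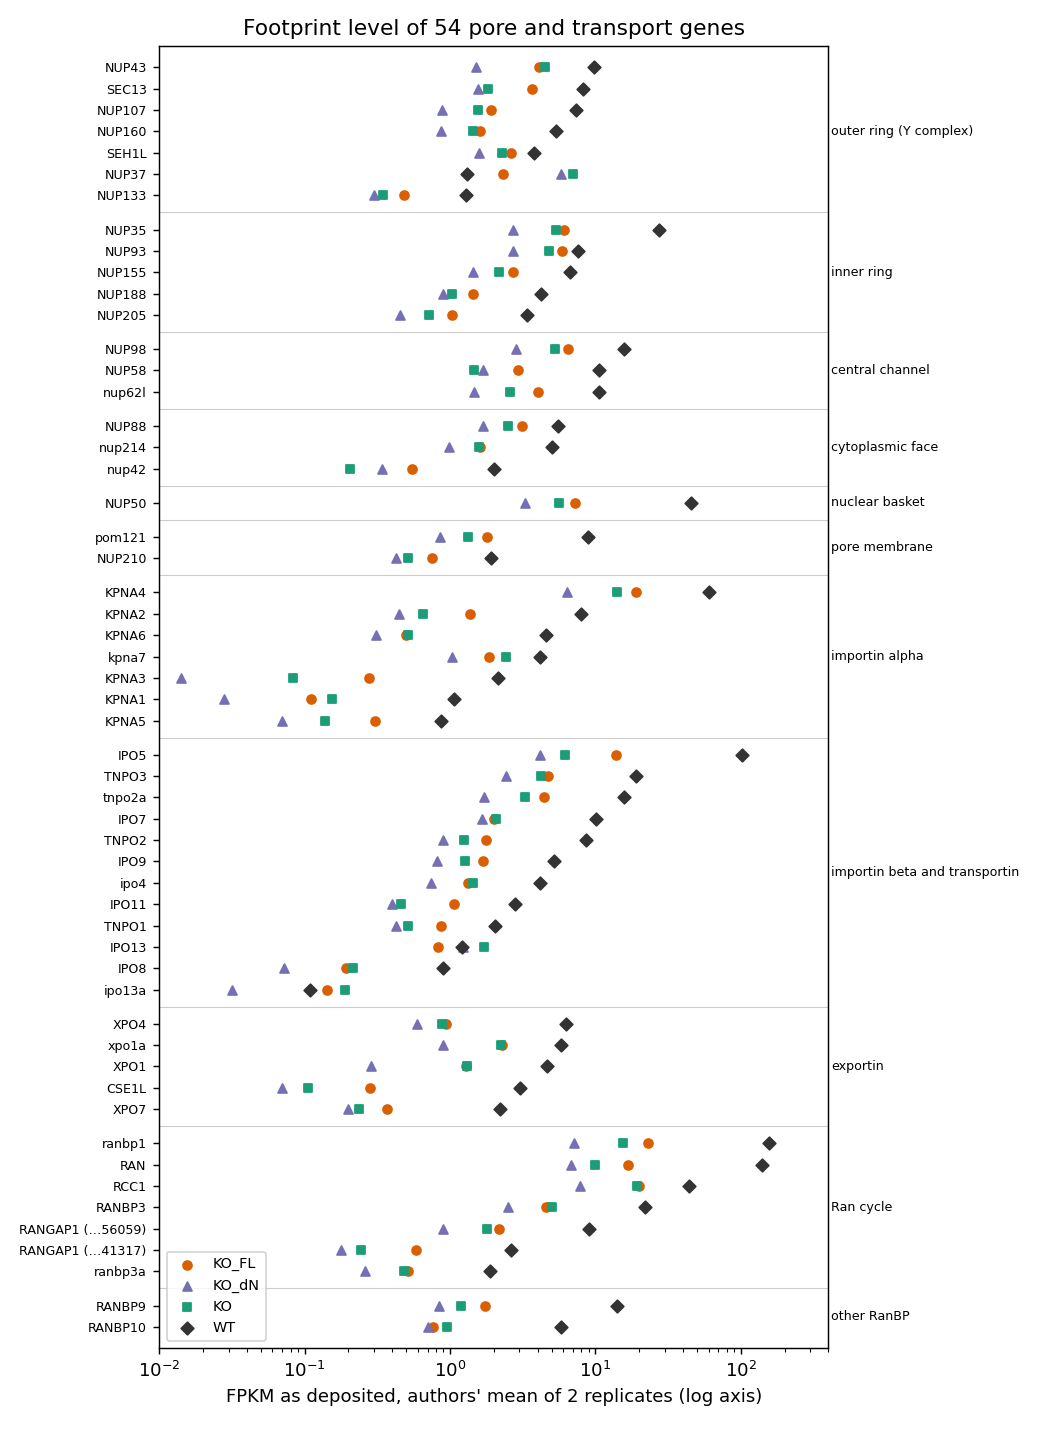
Deposited FPKM (log axis) of the 54 pore and transport genes with a single line in each file, ordered by role and by the WT level; each symbol is the authors' mean of 2 replicates. WT lies to the right for all but 3 genes, NUP37, IPO13 and ipo13a.

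The most abundant members encode transport receptors, Ran and proteins that act on Ran rather than parts of the pore. In WT, ranbp1, a cofactor that speeds GTP hydrolysis by Ran, stood at percentile 94.1 of the genes tested, Ran itself (RAN) at 93.5 and the importin IPO5 at 91.9. In KO, RCC1, the chromatin-bound exchange factor that loads Ran with GTP, was highest at percentile 92.3, before ranbp1 at 90.9 and the importin alpha KPNA4 at 90.3. The most abundant pore gene in WT was NUP50, which sits at the nuclear basket and helps importin alpha release its cargo, at percentile 85.1; in KO it was NUP37, at 83.7. Within a group the order of the genes needs no scaling between groups. The percentiles also depend on which genes were kept, and the filter that kept them used scaled values.

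The comparison of KO with WT addresses how footprints differ in ddx3xb mutants. Relative to all genes, 12 of the 39 members tested (30.8%) were higher in KO and 5 (12.8%) were lower, where 26.4% of all genes were higher and 27% lower (percentages of the genes tested). These shares depend on the settings. With no filter, 18.5% of 54 members were higher and 13.0% lower, where 7.10% of 25565 genes, low ones included, were higher and 11.5% lower. With a filter without WT, 25.6% of members and 25.6% of all genes were higher, and 15.4% and 26.6% were lower. A mean of at least 5 gave 33.3% and 33.6% higher, and 25% and 33.4% lower. With values scaled to a common total (TPM), 27.7% and 26.7% were higher, and 10.6% and 27.3% were lower. With the main settings, the median relative log2 ratio was 0.28 over the members, with a middle range of -0.10 to 0.68. Over all genes the middle range was -0.65 to 0.64. At 2-fold, 7 members were higher and 2 lower, where 15.7% of all genes were higher and 16% lower. Since the typical deposited value was several-fold lower in KO than in WT, a gene called higher relative to all genes can still have the lower FPKM in KO. Of 18 pore members tested, 7 (38.9%) were higher in KO, 0 were lower and 15 had ratios above 0, with a median of 0.37. The other 21 members tested held 5 higher and 5 lower members, with a median of 0.15.

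**Figure D2:**
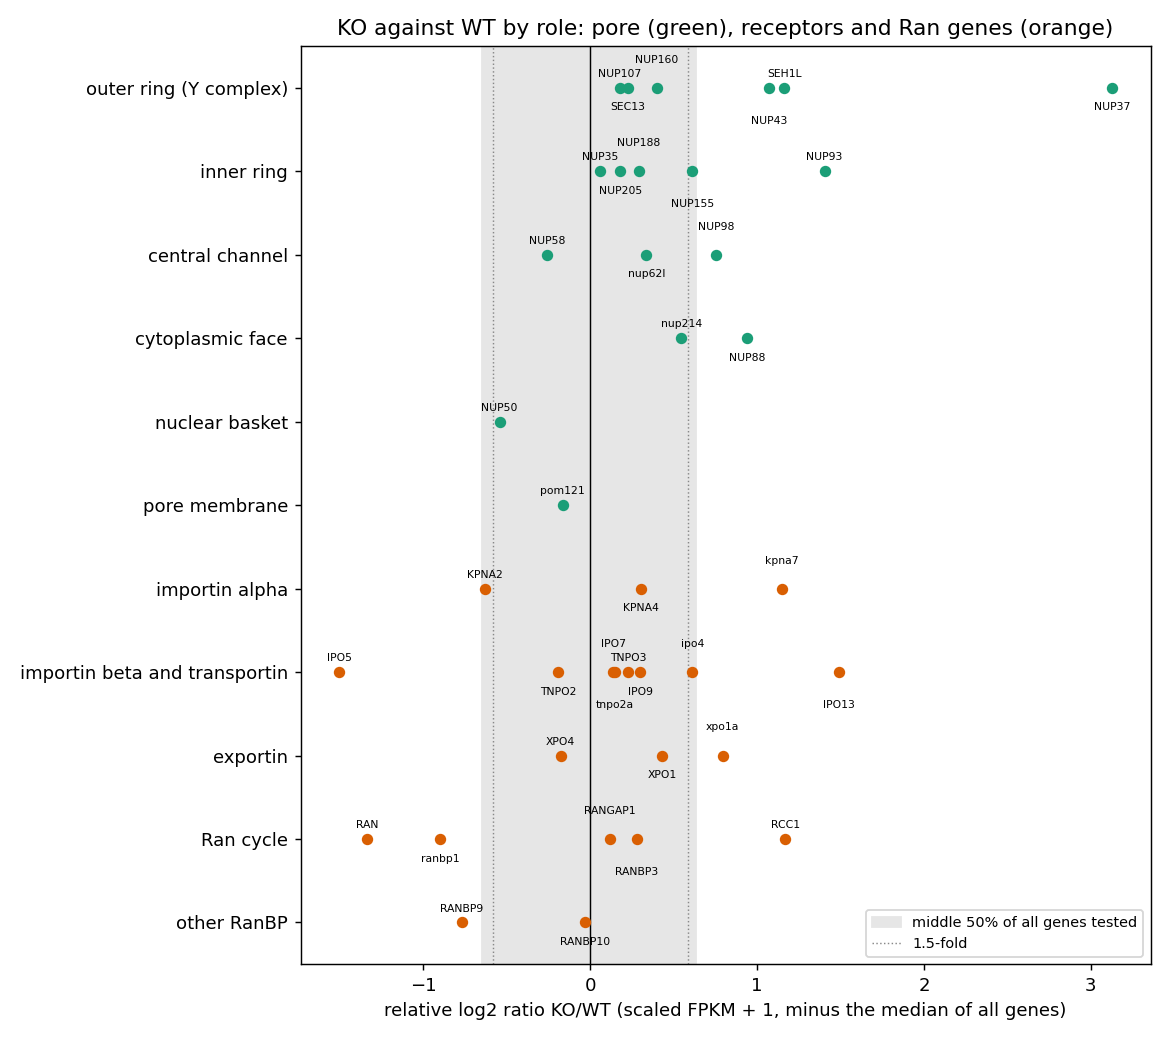
Relative log2 ratio of KO to WT for the 39 members tested, by role; the grey band is the middle 50% of all genes and the dotted lines mark 1.5-fold. No pore gene (green) lies left of the lower 1.5-fold line, while IPO5, RAN, ranbp1, RANBP9 and KPNA2 (orange) do, and NUP37 lies farthest to the right.

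The outer ring of the pore is made of Y-shaped complexes and held the largest difference. NUP37, a subunit of the Y complex, had 2.30 FPKM in KO_FL, 5.83 in KO_dN, 7.01 in KO and 1.31 in WT. It was high in KO and KO_dN, low in WT and between them in KO_FL. Its relative log2 ratio of KO to WT was 3.13, and 111 of the 6356 genes tested, NUP37 included, had a ratio that high. In percentiles of the genes tested it stood at 50.4 in KO_FL, 87.5 in KO_dN, 83.7 in KO and 4.53 in WT. SEH1L, a Y complex subunit that also serves a nutrient-sensing complex at the lysosome, had 2.64 FPKM in KO_FL, 1.58 in KO_dN, 2.29 in KO and 3.76 in WT, with a relative log2 ratio of KO to WT of 1.16. NUP43, a further subunit of the complex, had 4.10 FPKM in KO_FL, 1.5 in KO_dN, 4.51 in KO and 9.83 in WT, a ratio of 1.07.

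The other Y complex subunits that the naming rule holds and that were tested stayed within 1.5-fold of the median gene. NUP107, of the stem of the Y, had 1.90 FPKM in KO_FL, 0.879 in KO_dN, 1.56 in KO and 7.37 in WT, with a relative ratio of KO to WT of 0.18. NUP160 had a ratio of 0.40, and SEC13, which also forms part of the COPII vesicle coat, one of 0.22. NUP133 was below the filter, at 0.347 FPKM in KO and 1.29 in WT. The level of NUP37 over that of NUP107 was 1.21 in KO_FL, 6.63 in KO_dN, 4.49 in KO and 0.178 in WT, a ratio within each group that no scaling affects; this pair was chosen after its values were seen.

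Reads at the NUP37 locus need care. In RefSeq's annotation of the GRCz12tu assembly, a later build than the Zv9 build of the files, the span of nup37 is overlapped by the protein-coding genes parpbp, pmch and igf1. parpbp had 1.84 FPKM in KO_FL, 1.46 in KO_dN, 2.68 in KO and 8.72 in WT. Scaled, that is 2.04 in KO_FL, 3.28 in KO_dN, 3.67 in KO and 2.56 in WT. Its relative log2 ratios were 0.58 for KO over WT, -0.62 for KO_FL over KO and -0.53 for KO_FL over KO_dN. Each of these had the sign of the ratio of NUP37 and was smaller. For KO_dN over KO the signs differed, with parpbp at -0.10 and NUP37 at 0.43. What reads from parpbp contributed to NUP37 was not tested. pmch was listed at 0 in all groups, and igf1 did not exceed 0.454 FPKM. The sources used here do not say how the authors' counting dealt with strand and overlapping genes. The same annotation places a protein-coding gene over 10 of the 49 members whose symbol it holds, which are IPO7, KPNA4, NUP133, NUP155, NUP210, NUP37, NUP50, NUP93, XPO7 and ipo4, and values of these are less certain. For ipo4 the overlapping gene is nanog, at 69.7 FPKM in KO and 118 in WT, with a relative log2 ratio of KO to WT of 1.63. For NUP93 they are mt2, for which no value was matched, and bbs2, which did not exceed 0.537 FPKM. For KPNA4 they include smc4, at 8.20 FPKM in KO and 95.6 in WT (KO over WT -1.06), and nnr, at 3.42 in KO and 55.1 in WT (-1.41). What reads from these genes contributed to KPNA4, or reads from nanog to ipo4, was not tested. Genes of noncoding RNA overlap members as well. These include small nucleolar RNA genes over ranbp1, tnpo2a and IPO7. Long noncoding RNA genes lie over RAN, NUP98, NUP50, KPNA4, XPO7 and ranbp3a. No values were matched for them, and what their reads contributed was not tested.

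The inner ring binds the membrane and anchors the channel. NUP93, the scaffold that recruits the channel proteins, had 5.90 FPKM in KO_FL, 2.70 in KO_dN, 4.77 in KO and 7.64 in WT. Its relative log2 ratio of KO to WT was 1.4, and it stood near the 77th percentile in the 3 mutant groups (77.0 in KO_FL, 76.7 in KO_dN and 77.5 in KO) against 37.8 in WT. NUP155, which binds the pore membrane, had 2.69 FPKM in KO_FL, 1.45 in KO_dN, 2.16 in KO and 6.65 in WT, and a ratio of 0.61. That is just past 1.5-fold, and the call ends with no filter (0.46) or with a filter without WT (0.49). NUP35, a small membrane-binding subunit and the most abundant of the ring in WT, had 6.08 FPKM in KO_FL, 2.73 in KO_dN, 5.35 in KO and 27.6 in WT, a ratio of 0.06. NUP188 and NUP205, the large paired scaffolds, had ratios of 0.29 and 0.18. The level of NUP93 over that of NUP35 was 0.97 in KO_FL, 0.991 in KO_dN, 0.893 in KO and 0.277 in WT, so the mutant groups resembled each other and WT differed from all of them; this pair too was chosen after its values were seen.

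In the central channel, phenylalanine-glycine repeats form the barrier that receptors cross. NUP98, one of these repeat proteins, had 6.47 FPKM in KO_FL, 2.83 in KO_dN, 5.31 in KO and 15.6 in WT, with a relative log2 ratio of KO to WT of 0.76, a call that ends with values as deposited (0.55) or a pseudocount of 5 (0.44). NUP58 had 2.92 FPKM in KO_FL, 1.69 in KO_dN, 1.46 in KO and 10.5 in WT, a ratio of -0.26, and nup62l one of 0.34. On the cytoplasmic face, NUP88 had 3.15 FPKM in KO_FL, 1.68 in KO_dN, 2.50 in KO and 5.55 in WT, with a ratio of 0.94. Its partner nup214, to which NUP88 binds at the pore, had 1.61 FPKM in KO_FL, 0.976 in KO_dN, 1.58 in KO and 5.00 in WT, with a ratio of 0.55. NUP50 of the basket lay on the other side, at 7.24 FPKM in KO_FL, 3.30 in KO_dN, 5.58 in KO and 45.4 in WT, a ratio of -0.54, and the membrane protein pom121 was at -0.17. nup42 of the cytoplasmic face and the membrane protein NUP210 were below the filter, with 0.205 FPKM in KO and 2.01 in WT for nup42 and 0.514 FPKM in KO and 1.92 in WT for NUP210.

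Pore genes outside the naming rule lay on both sides. Of 5 that were listed, NDC1, a membrane anchor of the pore, was higher in KO at 3.22 FPKM against 7.15 in WT (0.99). TPR, the main filament of the basket, was lower with 2.79 FPKM in KO and 28.1 in WT (-0.75). GLE1, which acts in mRNA export at the cytoplasmic face, was lower with 3.39 FPKM in KO and 36.8 in WT (-0.87), and so was AHCTF1, which seeds pore assembly on chromatin, with 0.686 FPKM in KO and 10.4 in WT (-0.88). RAE1 was at 0.34. With these included, 8 of 23 pore genes were higher in KO and 3 were lower (34.8% and 13.0%, where 26.4% and 27% of all genes were).

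Transport receptors pointed both ways between KO and WT. Importin alpha adaptors read the nuclear localization signal of a cargo. Of these, kpna7, known in mammals as an importin alpha of oocytes and early embryos, had 1.86 FPKM in KO_FL, 1.03 in KO_dN, 2.42 in KO and 4.15 in WT, with a relative log2 ratio of KO to WT of 1.15. KPNA2 had 1.37 FPKM in KO_FL, 0.442 in KO_dN, 0.650 in KO and 7.95 in WT, a ratio of -0.63, a call that ends with values as deposited (-0.50) or a pseudocount of 5 (-0.23). The level of kpna7 over that of KPNA2 was 1.35 in KO_FL, 2.34 in KO_dN, 3.72 in KO and 0.523 in WT, a pair chosen after its values were seen. KPNA4 was the most abundant adaptor in every group, at 18.9 FPKM in KO_FL, 6.38 in KO_dN, 14.0 in KO and 60.1 in WT, with a ratio of 0.31. The others, KPNA1, KPNA3, KPNA5 and KPNA6, were below the filter, with at most 4.59 FPKM in WT (KPNA6).

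Importins of the beta family bind cargo and pore directly. IPO5, which imports ribosomal proteins and histones, had the lowest relative ratio of any member, with 13.9 FPKM in KO_FL, 4.18 in KO_dN, 6.22 in KO and 101 in WT and a log2 ratio of KO to WT of -1.5. IPO13, which is known to carry cargo in both directions, had 0.822 FPKM in KO_FL, 1.24 in KO_dN, 1.70 in KO and 1.21 in WT, and the ratio was 1.49. Its paralogue ipo13a was near the limit of measurement, with 0.190 FPKM in KO and 0.109 in WT. ipo4, a histone importer, had 1.32 FPKM in KO_FL, 0.736 in KO_dN, 1.45 in KO and 4.17 in WT, a ratio of 0.61. That call ends with no filter (0.46) or with a filter without WT (0.49). The span of ipo4 is overlapped by nanog, as described above, and what reads from nanog contributed was not tested. The transportins, which import RNA-binding and SR proteins, stayed close to the median gene: TNPO3 had 4.74 FPKM in KO_FL, 2.42 in KO_dN, 4.22 in KO and 19.1 in WT (0.23), and TNPO2 and tnpo2a were at -0.19 and 0.15. IPO7 and IPO9 were at 0.14 and 0.30. IPO8, IPO11 and TNPO1 were below the filter.

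Exportins carry cargo out with Ran-GTP. xpo1a, a zebrafish form of the general exportin CRM1, had 2.26 FPKM in KO_FL, 0.898 in KO_dN, 2.26 in KO and 5.75 in WT, with a relative log2 ratio of KO to WT of 0.79. The other form, listed as XPO1, had 1.29 FPKM in KO_FL, 0.288 in KO_dN, 1.30 in KO and 4.61 in WT, and a ratio of 0.43; the forms are paralogues, and the sources used here do not say how reads common to both were assigned, and the same holds for TNPO2 and tnpo2a, IPO13 and ipo13a, RANBP3 and ranbp3a and the RANGAP1 identifiers. XPO4 was at -0.18. CSE1L, which returns importin alpha to the cytoplasm, was below the filter, with 0.281 FPKM in KO_FL, 0.0699 in KO_dN, 0.105 in KO and 3.04 in WT, and so was XPO7. XPO6, the actin exporter, had 4.33 FPKM in KO_FL, 2.71 in KO_dN and 9.06 in KO, while WT listed it on 2 lines, at 9.40 and 7.90 FPKM. RANBP2, the large filament protein of the cytoplasmic face, had 3.03 FPKM in KO_FL, 3.92 in KO_dN and 4.79 in KO, while WT listed it on 3 lines, at 4.01, 11.7 and 4.42 FPKM. These last 2 genes entered no ratio with the main settings, which left out identifiers on several lines. They entered where lines were summed, which gave 41 members tested. Then 4 were lower in KO_FL/KO, 3 in KO_dN/KO and 3 in KO_FL/KO_dN. These are 9.76%, 7.32% and 7.32%, where 9.68%, 6.56% and 11.1% of all genes were.

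Within the Ran cycle, the GTPase and its exchange factor lay on opposite sides of the median gene. RAN had 16.6 FPKM in KO_FL, 6.83 in KO_dN, 9.99 in KO and 140.2 in WT, a relative log2 ratio of KO to WT of -1.34. RCC1 had 19.9 FPKM in KO_FL, 7.79 in KO_dN, 19.4 in KO and 44.2 in WT, a ratio of 1.17. The level of RCC1 over that of RAN was 1.20 in KO_FL, 1.14 in KO_dN, 1.94 in KO and 0.316 in WT: RCC1 was the higher of the pair in each mutant group and RAN in WT, whatever the scaling. This pair was chosen after its values were seen.

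The cofactors around them gave smaller differences or none past 1.5-fold. ranbp1 had 22.9 FPKM in KO_FL, 7.15 in KO_dN, 15.5 in KO and 157 in WT, a ratio of KO to WT of -0.90. RANGAP1, the protein that triggers GTP hydrolysis by Ran, is listed under 2 identifiers; ENSDARG00000056059 had 1.81 FPKM in KO and 9.02 in WT (0.12), and ENSDARG00000041317, with 0.244 FPKM in KO and 2.64 in WT, was below the filter. RANBP3, an exportin cofactor, was at 0.28, and ranbp3a was below the filter. RANBP9, a scaffold of a ubiquitin ligase that carries the Ran-binding name, had 1.75 FPKM in KO_FL, 0.832 in KO_dN, 1.19 in KO and 14.0 in WT (-0.77), and RANBP10, of the same kind, was at -0.03. Outside the naming rule, 5 further Ran cycle and receptor genes gave 1 higher and 0 lower in KO (20% and 0%, where 26.4% and 27% of all genes were). The higher one was NEMP1, which also counts among the lamina genes. RCC2 was at 12.1 FPKM in KO and 74.3 in WT (-0.19) and NUTF2, the import factor of Ran itself, was at 0.986 FPKM in KO and 3.15 in WT (0.48).

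**Figure D3:**
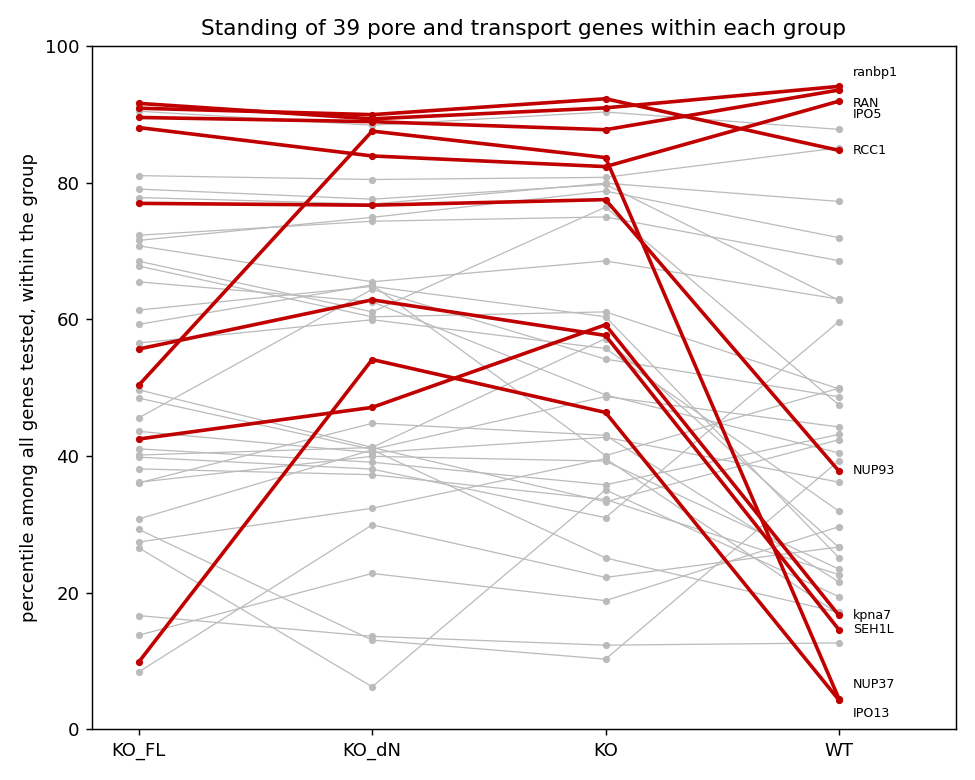
Percentile of each of the 39 members among the 6356 genes tested, computed within each group, with 9 members in red. The lines of NUP93, SEH1L and kpna7 drop between the 3 mutant groups and WT, those of NUP37 and IPO13 are low in WT and also lower in KO_FL than in KO_dN or KO, and RAN, ranbp1 and IPO5 are highest in WT.

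To set the abundant members beside genes of like level, all genes tested were ranked by their scaled level in KO_FL and KO_dN. Those libraries are not in the comparison of KO with WT, but the filter that chose the genes used all 4 groups. The ranked genes were divided into 10 bins of like size. In bin 10, with RCC1 and ranbp1, the median relative log2 ratio of KO to WT was 0.19, and in bin 9, with IPO5, RAN, NUP37, NUP50 and KPNA4, it was 0.20. In bin 1, which held 0 members, it was -0.58. Genes this low in KO_FL and KO_dN passed the filter largely through KO or WT, so the value of bin 1 depends on the filter. Markers of the enveloping layer, the outer cell sheet of the blastula, also differed between KO and WT. Of 6 listed (krt4, krt8, krt18a.1, krt92, grhl3 and epcam), 1 was higher and 4 were lower in KO, and none was at 0. These are 16.7% and 66.7%, where 26.4% of all genes were higher and 27% lower. Their summed scaled level was 85.0 in KO_FL, 42.0 in KO_dN, 47.9 in KO and 87.7 in WT. The blastula genes nanog (1.63) and sox19b (1.04) were higher in KO than in WT, and pou5f3 (0.51) stayed within 1.5-fold. Scaled, these 3 summed to 131 in KO_FL, 144 in KO_dN, 148 in KO and 73.0 in WT. The part of either set of markers in the values of the pore and transport genes was not tested.

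The comparison of KO_FL with KO asks what differed in mutants after the ddx3xbFL construct. Of the 39 members, 36 stayed within 1.5-fold of the median gene, 1 was higher (2.56%, against 11.6% of all genes) and 2 were lower (5.13%, against 9.64%). At 2-fold, 0 members were higher and 1 was lower, where 5.55% and 3.9% of all genes were. Those lower were NUP37, at 2.30 FPKM in KO_FL and 7.01 in KO (relative log2 ratio -1.58), and IPO13, at 0.822 FPKM in KO_FL and 1.70 in KO (-0.80). The higher one was IPO5, at 13.9 FPKM in KO_FL and 6.22 in KO (0.79). XPO6 and RANBP2 are not among the 39 members. As deposited, XPO6 had 4.33 FPKM in KO_FL and 9.06 in KO, and RANBP2 had 3.03 and 4.79. SEC13, NUP58 and KPNA2 had ratios of 0.54, 0.50 and 0.42, short of 1.5-fold. The median over the members was -0.01. KO libraries enter both this comparison and that of KO with WT, and each comparison's values are given on their own. NUP93, SEH1L and NUP88 had ratios of 0.00, -0.07 and 0.02. Of the 6 enveloping layer markers, 3 were higher and 1 was lower in KO_FL than in KO, and their part in these values was not tested.

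**Figure D4:**
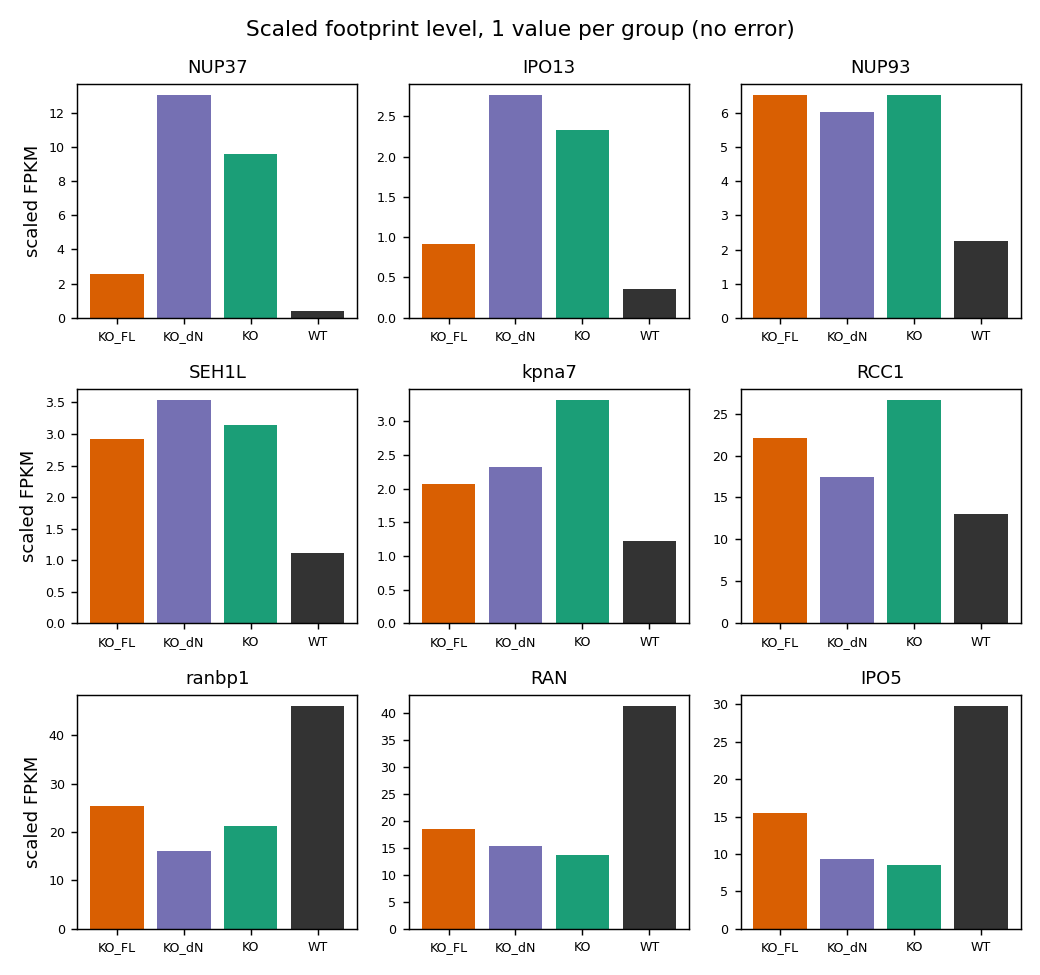
Scaled FPKM of 9 members in the 4 groups, 1 bar per group with no error available. NUP37 and IPO13 are high in KO_dN and KO and low in KO_FL and WT, NUP93, SEH1L, kpna7 and RCC1 are above WT in all 3 mutant groups, and ranbp1, RAN and IPO5 are highest in WT.

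The comparison of KO_dN with KO asks the same of the ddx3xb△N construct. Here 36 of 39 members again stayed within 1.5-fold, with 1 higher (2.56%, against 7.99% of all genes) and 2 lower (5.13%, against 6.51%). At 2-fold, 0 members were higher and 0 lower, where 3.23% and 2.05% of all genes were. NUP58 was the higher one, at 1.69 FPKM in KO_dN and 1.46 in KO where the typical gene was lower in KO_dN, a relative log2 ratio of 0.70 that was 0.49 with values as deposited. XPO1 was lower, at 0.288 FPKM in KO_dN and 1.30 in KO (-0.73, and -0.48 with values as deposited), as was NUP43, at 1.5 FPKM in KO_dN and 4.51 in KO (-0.70). The calls of NUP58 and XPO1 thus end without scaling, and all 3 end with a pseudocount of 5. RCC1 had a ratio of -0.56, just short of 1.5-fold. NUP37 had 5.83 FPKM in KO_dN and 7.01 in KO (0.43), and IPO13 1.24 FPKM in KO_dN and 1.70 in KO (0.20), so neither was lower relative to all genes in this group.

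Setting the constructs side by side, KO_FL against KO_dN, uses no KO library. Of the 39 members, 2 were higher in KO_FL (5.13%, against 12% of all genes), 2 were lower (5.13%, against 11.1%) and 35 stayed within 1.5-fold. At 2-fold, 0 were higher and 2 lower, where 5% and 5.14% of all genes were. NUP37 was lower at 2.30 FPKM in KO_FL and 5.83 in KO_dN, with a relative log2 ratio of -2.02; 66 of the 6356 genes tested, NUP37 included, had a ratio that low. IPO13 was lower at 0.822 FPKM in KO_FL and 1.24 in KO_dN (-1.01). IPO5 was higher at 13.9 FPKM in KO_FL and 4.18 in KO_dN (0.63), and ranbp1 at 22.9 FPKM in KO_FL and 7.15 in KO_dN (0.60). The call of ranbp1 ends when WT is left out of scaling and filter (0.56), with a mean of at least 5 (0.47) and with a pseudocount of 5 (0.51), and that of IPO5 ends with the last 2 of these. IPO7, at 2.01 FPKM in KO_FL and 1.65 in KO_dN, had a ratio of -0.58, just inside 1.5-fold. In the same comparison 4 of the 6 enveloping layer markers were higher in KO_FL and 1 was lower, and their part in these values was not tested.

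The comparisons of KO with WT and of KO_FL with KO_dN share no library, so their ratios can be set against each other across genes. Over the 39 members Pearson's r was -0.61 and Spearman's rho -0.25; genes of one library share its depth and scale and are not independent replicates. Without NUP37 r was -0.37 and rho -0.19, and without NUP37 and IPO13 they were -0.26 and -0.12. Over all genes tested they were -0.29 and -0.32. The relation among members thus rested mainly on NUP37, and its rank form was no stronger than that of all genes.

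**Figure D5:**
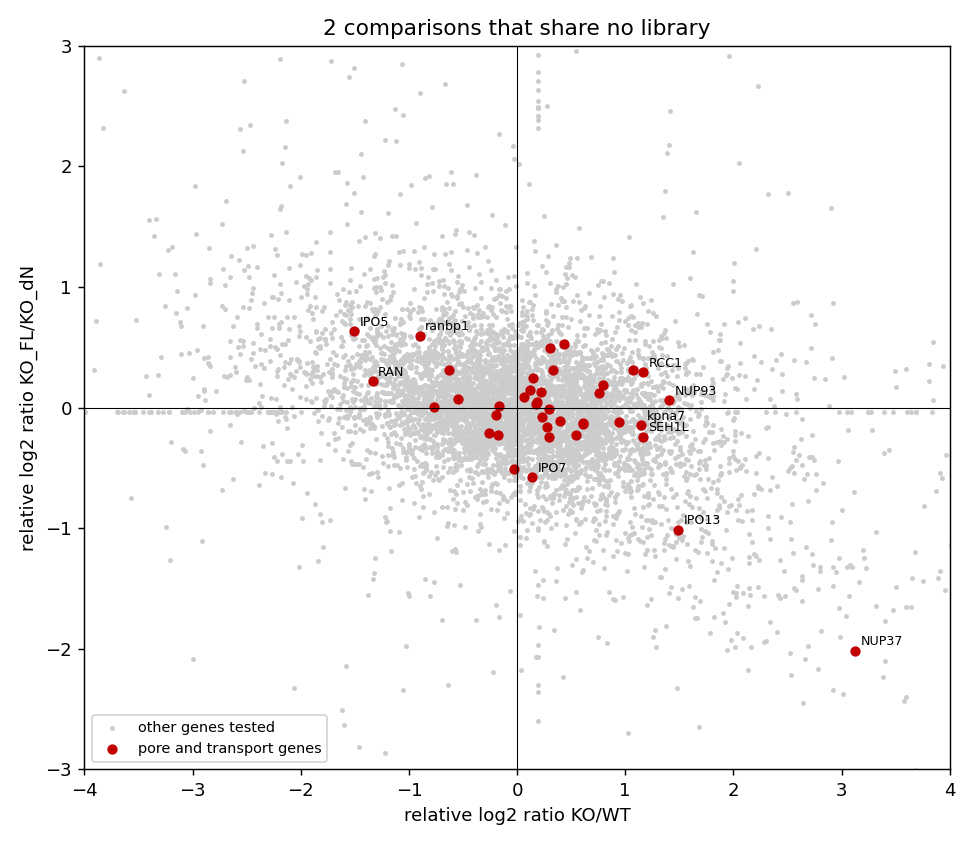
Relative log2 ratio of KO to WT (x axis) and of KO_FL to KO_dN (y axis) for 6180 genes; 176 genes, none of them a pore or transport gene, lie outside the axes. NUP37 and IPO13 lie at the lower right, high in KO against WT and low in KO_FL against KO_dN, and IPO5, ranbp1 and RAN at the upper left.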

How the data were processed

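Ribosome footprints of 8 samples in 4 groups were analysed. The deposited FPKM values are 1 per gene and group, which the authors made from both replicates, per the series design text, and which are read here as their mean. Reads were handled with Cufflinks 2.2.1, TopHat2 2.1.1, Bowtie, Trimmomatic 0.36 and cutadapt 1.13 on the build Zv9, per the submitters' processing notes, which as used here hold no settings. Gene symbols were looked up by identifier, which matched 21939 of 33737 identifiers. Identifiers on several lines of a file, or absent from one, were left out (33633 remained, with 54 of the 56 members). Values were divided by median-of-ratios factors from the 3177 genes that reached 1 FPKM in every group, and genes with a mean scaled FPKM of at least 1 were kept. Log2 ratios used a pseudocount of 1 and were centred on their median, which was -0.19 for KO/WT, 0.00 for KO_FL/KO, -0.03 for KO_dN/KO and 0.03 for KO_FL/KO_dN. Scaling came before the pseudocount because the groups' totals differ several-fold. Pairs of members set against each other within a group, and bins of level, were chosen after their values were seen. Relative depth came, for each comparison, from 4 log2 ratios among the commonest of genes under 0.1 FPKM. These 4 were searched for so that outer and inner sums were equal. They held 14.1% of such genes in KO_FL/KO and up to 20.0% in KO/WT.

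Members that differed by 1.5-fold in any comparison, or stood above the 90th percentile in WT or KO, are named in full. Members, lists and roles were chosen with earlier results of these data known. With 1 value per group no test was run. The code was tested on simulated data. Python 3.11.15, numpy 2.4.6, pandas 2.3.3 and matplotlib 3.10.9 were used. Sequences of the genes were not used here.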

Additional observations from a re-analysis of the deposited data

How the results depend on the processing

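No paired analysis was possible because each group has a single value made from both replicates, and no replicate could be left out. The ratios of NUP37 in KO/WT, KO_FL/KO and KO_FL/KO_dN stayed past the fold in use under every alternative (NUP37 in KO/WT from 1.53 to 4.58). So did those of IPO5, RAN, RCC1, NUP93 and NUP43 in KO/WT, wherever they were measured. The 237 recalculations covered only member ratios called past 1.5-fold, which lie away from 0. None of these changed sign, and 43 fell short of the fold, most with a pseudocount of 5 or a fold of 2. Members within 1.5-fold were not followed one by one, so the signs of their ratios are not covered. Among counts and medians, 89 of 131 recalculations stayed close. A pseudocount of 5 left 4 higher and 3 lower members in KO/WT (median 0.13, with 3 higher among pore genes), 1 lower in KO_FL/KO, 0 and 0 in KO_dN/KO, and 0 higher and 1 lower in KO_FL/KO_dN. Of all genes, 12.3% were then higher and 15.5% lower in KO/WT, and 3.56% were lower in KO_FL/KO. In KO_dN/KO 3.49% were higher and 2.34% lower, and in KO_FL/KO_dN 5.95% and 4.77%. With this pseudocount the calls in KO/WT of SEH1L (0.50), kpna7 (0.51), NUP88 (0.44), xpo1a (0.36), RANBP9 (-0.37) and IPO13 (0.54) end. So do those of NUP155 (0.28), ipo4 (0.25), NUP98 (0.44) and KPNA2 (-0.23) in KO/WT. Those of IPO13 in KO_FL/KO (-0.31) and KO_FL/KO_dN (-0.41) end too. A pseudocount of 0.1 gave 4 higher in KO_FL/KO and 4 lower in KO_FL/KO_dN (10.3% each, where 16.5% and 17.8% of all genes were). A mean of at least 5 kept 12 members, 5 of them of the pore, with 4 higher and 3 lower in KO/WT (3 higher in the pore). Of all genes, 33.6% were then higher and 33.4% lower. It gave 1 lower in KO_FL/KO (8.33%, where 11.7% of all genes were). There were 0 and 0 in KO_dN/KO (median -0.079), where 13.3% and 8.74% of all genes were. In KO_FL/KO_dN 0 were higher and 1 lower (0% and 8.33%, where 16.8% and 16.5% were). With values as deposited, 41 members were tested. KO_dN/KO then had 0 higher and 4 lower (0% and 9.76%, where 4.01% and 7.5% of all genes were). KO_FL/KO_dN had 5 higher (12.2%, where 14.5% of all genes were). The pore had 1 lower in KO/WT (5.56% of its members, where 27.1% of all genes were). TPM gave 3 higher in KO_FL/KO, 2 higher in KO_dN/KO and 4 lower in KO_FL/KO_dN. These are 6.38%, 4.26% and 8.51%, where 13.2%, 10.7% and 14.8% of all genes were. The median of KO/WT was 0.076 with no filter and 0.16 with a filter without WT, and each gave 1 lower pore gene. These are 4.76% and 5.56% of the pore members, where 11.5% and 26.6% of all genes were lower. With no filter the counts of members stayed close, but they stand beside smaller shares of all genes: 18.5% of members against 7.10% of genes were higher and 13.0% against 11.5% lower in KO/WT, and 1.85% against 3.61% higher and 3.70% against 3.18% lower in KO_FL/KO. Summed lines brought in XPO6 and RANBP2, and gave 4 lower in KO_FL/KO (9.76%, where 9.68% of all genes were). At 2-fold there were 7 higher and 2 lower in KO/WT (4 higher in the pore), 0 higher and 1 lower in KO_FL/KO, 0 and 0 in KO_dN/KO and 0 higher in KO_FL/KO_dN. Scaling and filtering without WT, chosen after seeing the data, gave 1 lower in KO_dN/KO and 1 higher in KO_FL/KO_dN. These are 2.94% each, where 5.85% and 11.7% of all genes were. The counts of pore genes were also added after seeing the data. Fewer genes tested, a larger pseudocount and a larger fold lower these counts by construction; otherwise the cause was not tested. Depth in reads is unknown, so the precision of low members cannot be given.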

Other observations

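Genes of mRNA export, which share the pore with the transport receptors, were also measured. Of 20 tested, 7 were higher and 4 were lower in KO than in WT relative to all genes (35% and 20%, where 26.4% and 27% of all genes were). THOC2, the scaffold of the THO complex that couples transcription to export, had 11.6 FPKM in KO_FL, 4.72 in KO_dN, 9.34 in KO and 294 in WT, with a relative log2 ratio of KO to WT of -2.47. THOC7, of the same complex, had 5.41 FPKM in KO and 65.7 in WT (-1.08), while THOC5 lay on the other side at 10.8 FPKM in KO and 31.4 in WT (0.82). The export adaptors alyref and CHTOP were higher in KO, at 54.5 FPKM in KO and 93.3 in WT (1.60) and at 55.5 FPKM in KO and 103 in WT (1.49). SARNP and zc3h11a were lower, with ratios of -0.63 and -0.65, and the helicase genes listed as DDX39A were higher (0.83 and 0.76), as were ENY2 (0.71) and mcm3ap (0.61). Between the constructs, 3 were higher and 3 lower in KO_FL (15% each, where 12% and 11.1% of all genes were). PCID2 had 12.5 FPKM in KO_FL and 2.62 in KO_dN (1.08), with THOC7 (0.69) and SARNP (0.74) also higher and zc3h11a (-0.98), THOC5 (-0.77) and ddx39b (-0.69) lower in KO_FL.

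Genes of the nuclear lamina and envelope were measured as well. Of 9 tested, 2 were higher (22.2%, where 26.4% of all genes were) and 0 were lower (where 27% were) in KO than in WT. In the other 3 comparisons 0 of the 9 were past 1.5-fold, where 11.6% of all genes were higher and 9.64% lower in KO_FL/KO, 7.99% and 6.51% in KO_dN/KO, and 12% and 11.1% in KO_FL/KO_dN. LMNB1, a lamin, had 21.8 FPKM in KO_FL, 10.4 in KO_dN, 18.2 in KO and 96.5 in WT, with a relative log2 ratio of KO to WT of 0.01. BANF1, which links chromatin to the envelope, had 5.34 FPKM in KO and 16.9 in WT (0.67), and NEMP1, an inner nuclear membrane protein, had 1.18 FPKM in KO and 3.03 in WT (0.66).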
